A study of Mus musculus with 92 samples.

Results

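The genes described here are 6 homeostatic microglia genes that do not code for purinergic or other classical signalling receptors: Tmem119, Fcrls, Olfml3, Sparc, Cst3 and Slc2a5. They were chosen by gene symbol, and each matched a single row among the 29956 named genes of the deposited expression table.

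Microglia are the resident macrophages of the brain parenchyma, and in the healthy brain they carry a set of transcripts that other macrophages hold at low levels or lack. This state is kept up by signals of the brain, TGF-beta among them, and it fades when microglia are put in culture. Among the 6 genes, Tmem119 codes for a transmembrane protein used as a surface marker of microglia and Fcrls for a scavenger receptor-like member of the Fc receptor-like family. Olfml3 codes for a secreted olfactomedin-domain protein and Sparc for a secreted collagen-binding matrix protein. Cst3 codes for cystatin C, a secreted inhibitor of cysteine cathepsins, and Slc2a5 for the fructose transporter GLUT5. Cst3 and Sparc are also known from other brain cells, astrocytes and endothelium among them.

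Tmem119, Olfml3, Sparc, Cst3 and Slc2a5 were called higher together in bone marrow cells after residence in the brain, as described further on. In ER-Hoxb8 cells, also described below, Tmem119 and Cst3 were not called. The promoters of these genes are shown, except that of Tmem119. RefSeq (GRCm38.p6) gives a window of 250 bases before to 50 bases after the start for 5 of the 6 genes, and Tmem119 is named only. Each was searched on both strands for 6 short motifs of factors known in microglia: GAGGAAGT (PU.1), GTCTAGAC and CAGACA (SMAD), TATTTATA and TATTTTTA (MEF2) and TGCTGA (MAF). Of 32851 windows of the table, 3.2% held GAGGAAGT, 0.213% GTCTAGAC, 21% CAGACA, 1.7% TATTTATA, 2.72% TATTTTTA and 19.5% TGCTGA. The letters CAGACA were found in Fcrls, Sparc and Slc2a5 and TGCTGA in Fcrls, Sparc and Cst3, in capitals in the windows given here, on the reverse strand as TGTCTG and TCAGCA; the other motifs were in none of the 5, and the Olfml3 window held no match. No match overlapped another, and a match describes letters only. The windows are chr3:103737952-103738251 (minus strand) for Olfml3, chr11:55420031-55420330 (minus) for Sparc, chr2:148875463-148875762 (minus) for Cst3 and chr4:150119094-150119393 (plus) for Slc2a5.
Olfml3: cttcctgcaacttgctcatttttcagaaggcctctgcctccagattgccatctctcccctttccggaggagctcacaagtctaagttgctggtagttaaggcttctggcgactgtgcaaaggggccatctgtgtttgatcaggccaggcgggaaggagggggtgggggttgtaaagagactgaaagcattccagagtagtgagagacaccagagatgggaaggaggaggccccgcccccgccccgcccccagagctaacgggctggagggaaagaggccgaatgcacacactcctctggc
Sparc: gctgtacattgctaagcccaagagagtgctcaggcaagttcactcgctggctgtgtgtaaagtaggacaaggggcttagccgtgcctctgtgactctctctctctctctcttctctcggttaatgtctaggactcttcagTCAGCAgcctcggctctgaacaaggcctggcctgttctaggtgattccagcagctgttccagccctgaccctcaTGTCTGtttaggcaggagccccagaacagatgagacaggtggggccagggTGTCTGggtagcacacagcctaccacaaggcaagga
Cst3: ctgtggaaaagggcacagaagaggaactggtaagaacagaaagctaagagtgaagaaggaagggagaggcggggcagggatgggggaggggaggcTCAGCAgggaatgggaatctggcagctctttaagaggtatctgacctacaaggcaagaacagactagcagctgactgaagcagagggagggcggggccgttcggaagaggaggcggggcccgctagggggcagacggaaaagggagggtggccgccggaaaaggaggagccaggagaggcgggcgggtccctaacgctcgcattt
Slc2a5: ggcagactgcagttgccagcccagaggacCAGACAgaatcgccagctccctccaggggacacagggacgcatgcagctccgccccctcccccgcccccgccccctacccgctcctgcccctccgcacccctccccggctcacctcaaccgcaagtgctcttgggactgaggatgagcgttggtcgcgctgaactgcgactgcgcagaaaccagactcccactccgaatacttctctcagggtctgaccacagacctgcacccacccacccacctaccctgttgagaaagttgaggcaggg

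RNA was sequenced in bulk from 92 mouse libraries in 25 groups. Bone marrow (BM) progenitors, BM monocytes and bone marrow-derived (BMD) macrophages came from wild-type FVB mice, the macrophages after 7 days in culture with macrophage colony-stimulating factor. ER-Hoxb8 cells are marrow progenitors held in an immature state by an estrogen-dependent Hoxb8; they were made from FVB mice heterozygous for Cas9, and were sequenced as progenitors, after 4 days of culture and as macrophages after 7 days. The study made several independent lines of them, and the labels do not tie a replicate to a line. Microglia-like cells (MLCs) were BM or ER-Hoxb8 cells injected into the brains of newborn Csf1r-/- pups, which lack their own microglia and later sorted back out of the brain by CD45 and CD11b staining; the labels give their genotype as wild type. Microglia were sorted from wild-type FVB mice that had received no injection. Between MLCs and microglia, cell source thus cannot be told apart from the Csf1r genotype of the host or from injection. In further ER-Hoxb8 cells, Cas9 was directed to Adar1 by sgRNA 1 or sgRNA 2, or given a non-targeting control guide (NTC), and both progenitors and 7-day macrophages were sequenced. The last series grew NTC and Adar1 KO (sgRNA 1) macrophages for 7 days with the JAK inhibitor baricitinib at 0, 0.0006, 0.016, 0.4 or 10 uM. The written protocol of the deposit gives other values for some of these doses, and the doses of the sample titles are used here. Cells from the brain and cells from culture had their RNA extracted by different kits, so brain residence and extraction cannot be told apart. In ER-Hoxb8 cells the labelled genotype (wild type in MLCs, heterozygous for Cas9 in culture) and the library series also go with brain residence. They cannot be told apart from it either. Outside the brain, ER-Hoxb8 cells carried Cas9 and marrow cells were wild type, so this genotype cannot be told apart from cell source.

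Values are log2 CPM, read counts scaled to a common library total, after TMM scaling with a small prior count, as the authors deposited them. A gene without reads takes the lowest value of its library, and that lowest value differs between 6 sets of libraries. Levels were therefore compared only within a set. The brain set holds 27 libraries (lowest value -3.62): 3 of BMD macrophages, 3 of ER-Hoxb8 macrophages, 6 of BMD MLCs, 6 of ER-Hoxb8 MLCs and 9 of microglia. The progenitor set holds 12 libraries (-4.34), the guide 1 set 11 (-3.43), the guide 2 set 8 (-3.56) and the baricitinib set 33 (-2.78), while NTC macrophage replicate 2 stands alone (-3.09). The depth of each library is not given; with an assumed prior count of 2, the lowest values correspond to mean depths of 40.6 M reads in the progenitor set, 24.5 M in the brain set, 21.5 M in the guide 1 set, 17.1 M in the single library, 23.6 M in the guide 2 set and 13.7 M in the baricitinib set. limma gave an adjusted p over all genes tested. A gene was called different when this was below 0.05 and the log2 fold change was at least 2 in either direction. The p-values measure the spread between samples. The study describes the baricitinib replicates as differentiated independently, and the labels do not say whether replicates of a guide are separate edited lines. Where they are cultures of 1 line, p-values measure the spread between cultures, and genotype cannot be told apart from that line.

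Some libraries stood apart from their group or label. Microglia replicate 8 had 56.9% of genes at the lowest value, where the next highest library of the brain set had 52.2%, and it held the highest sums of oligodendrocyte markers (677 CPM), astrocyte markers (834 CPM) and neuron markers (45.7 CPM) among the microglia. Replicates 8 and 9 of the microglia belong to a library series of their own, named YSWT in the labels without a stated meaning; without them, 4 of the 6 genes differed from BMD MLCs and 6 from ER-Hoxb8 MLCs, as with them. The ER-Hoxb8 MLCs came as 2 library series, named GFPHox (replicates 1 to 3) and WTHox (replicates 4 to 6) in the labels. Every WTHox name, and no GFPHox name, ends in Lo. The meaning of these names is not stated. Replicate 6, a WTHox library, was the lowest of its group in 5 of the 6 genes. Among BMD MLCs, replicates 1 and 2 held summed neutrophil markers of 6870 and 4096 CPM, against 28113 to 31774 CPM in replicates 3 to 6. BMD macrophage replicate 3 is named wBM in the labels and the other BMD macrophages Mac, without a stated meaning. It was the highest of its group in Tmem119, Olfml3, Sparc and Slc2a5 and the lowest in Cst3. The libraries labelled ER-Hoxb8 progenitors stood below BM progenitors in progenitor markers and above them in macrophage markers. The 4 progenitor markers (Kit, Cd34, Flt3, Mpo) summed to 54.1, 26.1 and 2363 CPM, against 5326 to 11075 CPM in BM progenitors, while their 5 macrophage markers summed to 2084, 4680 and 450 CPM, against 136 to 222 CPM. The progenitors of the guide 1 and guide 2 sets had Mpo as their most abundant progenitor marker, with medians of 11752, 18117 and 2405 CPM in sgRNA 1, NTC and sgRNA 2 progenitors.

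The 6 genes divided by how widely they were detected. Tmem119 and Cst3 exceeded 1 CPM in 92 of 92 libraries. Fcrls did so in 49, Sparc in 48, Olfml3 in 37 and Slc2a5 in 26. Slc2a5 sat at the lowest value in 48 of 92 libraries, 32 of them in the baricitinib set.

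In the brain set, most of these transcripts had higher means in cells taken from the brain than in cultured macrophages, and all 6 had their highest mean in microglia. BMD MLCs against BMD macrophages asks what residence in the brain added to marrow cells: 5 of 6 genes were higher and 0 lower, where 15.9% of all 12518 genes tested were called. ER-Hoxb8 MLCs against ER-Hoxb8 macrophages asks the same of ER-Hoxb8 cells, within the limit of their labelled genotypes: 3 of 6 were higher and 0 lower, with 19.3% of all genes called. Set against microglia, 4 of 6 genes were lower in BMD MLCs (10.7% of all genes called), and 6 of 6 were lower in ER-Hoxb8 MLCs (16.3%). Between the 2 kinds of MLC, Fcrls alone of the 6 was called, lower in ER-Hoxb8 MLCs (6.56%). In culture, Olfml3 alone was called, lower in ER-Hoxb8 than in BMD macrophages (1.85%). The medians over the 6 genes were 4.72 and 3.53 for the comparisons with cultured macrophages, beside -0.01 and -0.15 over all genes, and -3.0 and -4.42 for those with microglia, beside 0.06 and -0.10. These counts were the same without microglia replicate 8, ER-Hoxb8 MLC replicate 6 or BMD MLC replicate 1. Without BMD macrophage replicate 1 or 2, 5 became 4 in BMD MLCs against BMD macrophages, and the 1 call between the cultures became 0 in 4 of 6 fits with a library left out. The ER-Hoxb8 MLC counts depended on the library series: with GFPHox alone they were 5 against culture, 4 against microglia and 0 against BMD MLCs, and with WTHox alone 4 against BMD MLCs. The MLC comparisons share the microglia libraries, and each MLC group enters more than 1 comparison. Olfml3, Sparc and Slc2a5, called against both cultures, met the filter for testing (above 1 CPM in at least 6 libraries) only through groups from the brain. These are the groups where they were higher. In bulk RNA, fewer cells of a type and less RNA per cell cannot be told apart.

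**Figure D1:**
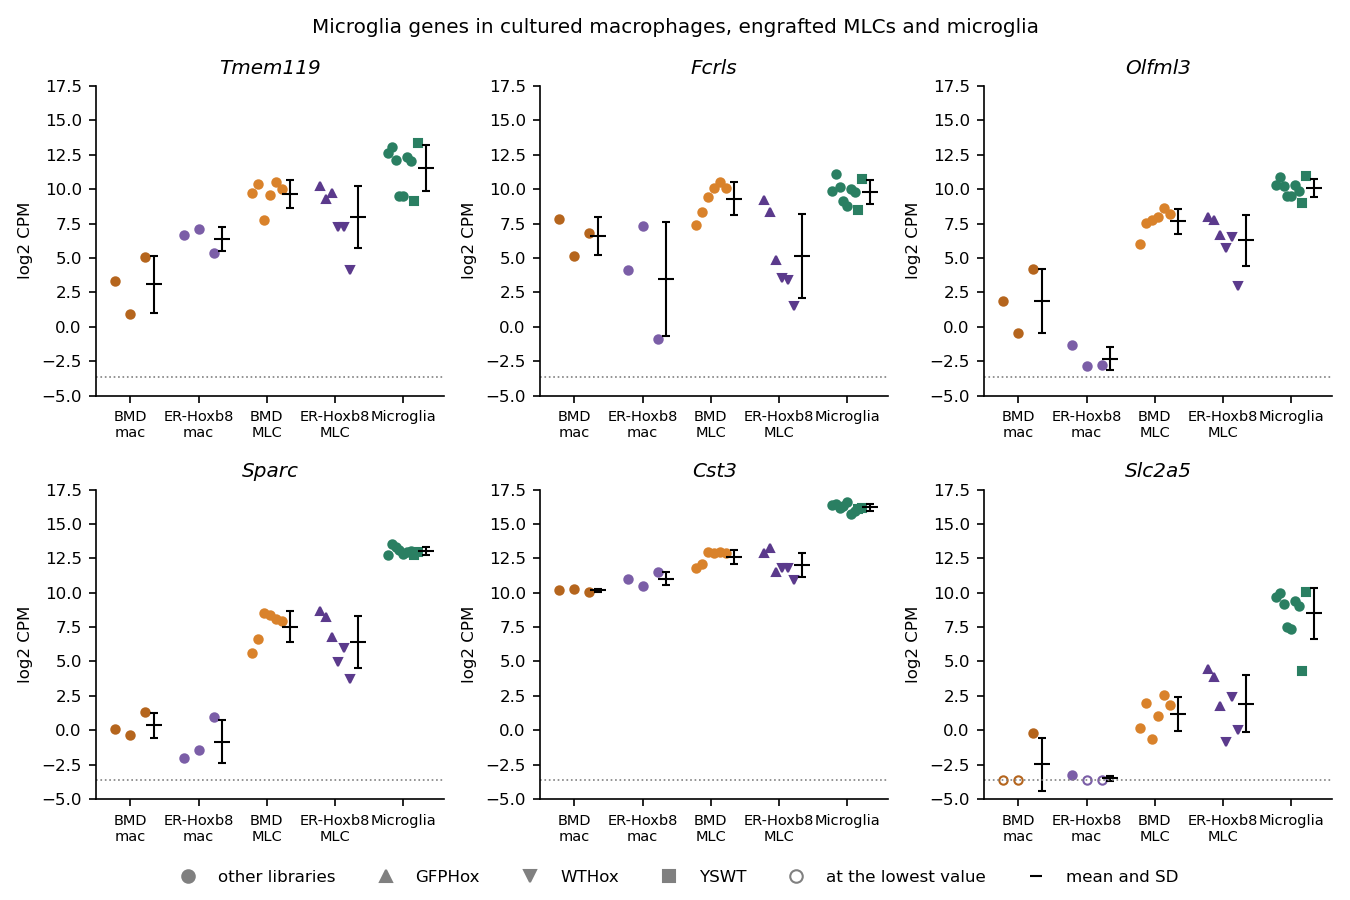
Log2 CPM of the 6 genes in each library of the brain set, with the group mean and SD beside the points; open symbols are at the lowest value, drawn as a dotted line at -3.62. Microglia sit highest in all 6 panels by mean, and Sparc and Cst3 leave a gap between the microglia (12.71 to 13.53 and 15.74 to 16.60) and every other library.

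Sparc separated microglia, MLCs and cultured macrophages from each other most plainly. In microglia it ranged from 12.71 to 13.53 log2 CPM (median 12.97, n = 9). BMD MLCs gave 5.65, 8.00 and 8.52 as lowest, median and highest (n = 6), and ER-Hoxb8 MLCs 3.75, 6.35 and 8.70 (n = 6). The cultured cells gave 0.07, -0.38 and 1.35 in BMD macrophages and -2.0, -1.43 and 0.97 in ER-Hoxb8 macrophages. No microglia library overlapped the MLCs, and no MLC library overlapped the cultured macrophages of its own source, while the MLC groups overlapped each other, as did the 2 cultures. Sparc was 146-fold higher in BMD MLCs than in BMD macrophages (log2 7.19, SE 0.79, adjusted p 3e-07). The difference between ER-Hoxb8 MLCs and ER-Hoxb8 macrophages was 148-fold (log2 7.21, SE 0.79, adjusted p 1.31e-07; 6.62 to 8.11 with 1 library left out). Against microglia, Sparc fell by 5.47 on the log2 scale in BMD MLCs (SE 0.59, adjusted p 7.97e-08) and by 6.62 in ER-Hoxb8 MLCs (SE 0.59, adjusted p 1.07e-09). ER-Hoxb8 and BMD MLCs differed by -1.15 (95% confidence interval -2.48 to 0.18, adjusted p 0.244).

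Olfml3, the other secreted protein of the matrix, followed the same order of means. Its lowest, median and highest values were 8.98, 10.24 and 10.99 in microglia, 5.98, 7.88 and 8.61 in BMD MLCs, and 2.98, 6.60 and 7.98 in ER-Hoxb8 MLCs. BMD macrophages held 1.89, -0.44 and 4.22, and ER-Hoxb8 macrophages -1.31, -2.87 and -2.75. Microglia lay above all MLCs, and the ER-Hoxb8 MLCs overlapped the BMD macrophages through replicate 6 (2.98). Against its own culture, Olfml3 was 383-fold higher in ER-Hoxb8 MLCs (log2 8.58, SE 0.85, adjusted p 2.34e-08) and 55.4-fold higher in BMD MLCs (log2 5.79, SE 0.85, adjusted p 1.61e-05). In fits without 1 of the libraries these were 8.24 to 9.24 and 4.63 to 6.96 on the log2 scale. It was 5.23-fold lower in BMD MLCs than in microglia (log2 -2.39, SE 0.63, adjusted p 0.00696) and 13.9-fold lower in ER-Hoxb8 MLCs (log2 -3.80, SE 0.63, adjusted p 3.07e-05; -4.14 to -3.14 with 1 library left out). The 2 cultures differed by -4.20 (SE 0.98, adjusted p 0.016; -5.37 to -3.04 with 1 library left out), with every ER-Hoxb8 macrophage below every BMD macrophage. That last call was lost without BMD macrophage replicate 1 or 3 (-4.20 and -3.04, adjusted p 0.0667 and 0.186) and without ER-Hoxb8 macrophage replicate 2 or 3 (-3.92 and -3.98, adjusted p 0.0781 and 0.0849). Olfml3 also lost it with log2(CPM + 1) (-2.22, adjusted p 0.322).

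Cst3, the cathepsin inhibitor, was present in every culture and rose to its highest values in microglia. Microglia gave 15.74, 16.18 and 16.60 as lowest, median and highest, against 11.79, 12.88 and 12.99 in BMD MLCs and 10.95, 11.80 and 13.22 in ER-Hoxb8 MLCs. BMD macrophages held 10.19, 10.29 and 10.06, and ER-Hoxb8 macrophages 11.03, 10.51 and 11.50. The microglia stood clear of all other libraries, BMD MLCs stood clear of BMD macrophages, and ER-Hoxb8 MLCs overlapped both BMD MLCs and ER-Hoxb8 macrophages. Cst3 was 5.34-fold higher in BMD MLCs than in BMD macrophages (log2 2.42, SE 0.39, adjusted p 6.28e-05). In ER-Hoxb8 MLCs the difference from their culture was 1.02 (SE 0.39, adjusted p 0.0468), under the fold limit. Cst3 was 12.1-fold lower in BMD MLCs than in microglia (log2 -3.60, SE 0.29, adjusted p 4.52e-10) and 18-fold lower in ER-Hoxb8 MLCs (log2 -4.17, SE 0.29, adjusted p 1.4e-11).

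Slc2a5, the fructose transporter, was near or at the lowest value in culture. BMD macrophages gave the lowest value in 2 of 3 libraries and -0.23 in the third, and ER-Hoxb8 macrophages the lowest value in 2 of 3 and -3.27 in the other. In the brain it ranged from -0.61 to 2.57 in BMD MLCs (median 1.43), from -0.84 to 4.45 in ER-Hoxb8 MLCs (median 2.06) and from 4.27 to 10.03 in microglia (median 9.18). Microglia replicate 8 (4.27) fell below the highest ER-Hoxb8 MLC, and the other 8 microglia libraries lay at 7.39 or above. Slc2a5 was 160-fold lower in BMD MLCs than in microglia (log2 -7.32, SE 0.85, adjusted p 2.74e-07; -7.85 without microglia replicate 8). The difference between ER-Hoxb8 MLCs and microglia was -6.56 (SE 0.85, adjusted p 8.06e-07; -7.08 without that library). Slc2a5 was higher in ER-Hoxb8 MLCs than in their culture by 5.43 (SE 1.14, adjusted p 0.000729) with no overlap. The BMD difference of 3.66 (SE 1.14, adjusted p 0.0167) had overlapping groups, and it ranged from 3.09 to 4.79 with 1 library left out, being 3.09 without BMD macrophage replicate 1 or 2 (adjusted p 0.0947 and 0.0864), and was 1.48 with log2(CPM + 1) (adjusted p 0.218). These folds depend on the prior count, since most of the cultured libraries are at the lowest value.

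Tmem119 was detected in all groups, with its order of means being microglia, BMD MLCs, ER-Hoxb8 MLCs, ER-Hoxb8 macrophages and BMD macrophages. Microglia gave 9.14, 12.10 and 13.35 as lowest, median and highest, BMD MLCs 7.74, 9.88 and 10.49, and ER-Hoxb8 MLCs 4.13, 8.29 and 10.21. ER-Hoxb8 macrophages held 6.70, 7.07 and 5.39, and BMD macrophages 3.32, 0.91 and 5.04. Each group overlapped the next in that order, except the 2 cultures. Tmem119 was 94.5-fold higher in BMD MLCs than in BMD macrophages (log2 6.56, SE 1.11, adjusted p 9.03e-05), with no overlap; with 1 library left out at a time the log2 value ranged from 5.47 to 7.54. In ER-Hoxb8 MLCs the difference from their culture was 1.60 (95% confidence interval -0.68 to 3.87, adjusted p 0.268), and it ranged from 1.10 to 2.37 with 1 library left out. Against microglia Tmem119 was lower by -3.54 in ER-Hoxb8 MLCs (SE 0.82, adjusted p 0.00135), and the BMD MLC difference of -1.87 (95% confidence interval -3.56 to -0.18, adjusted p 0.116) did not pass; without microglia replicate 8 these were -3.84 and -2.17 (adjusted p 0.000474 and 0.0559). Over all libraries left out in turn, the ER-Hoxb8 MLC difference ranged from -3.98 to -2.77. With library weights, an alternative chosen after seeing the data, the BMD MLC difference passed (-2.23, adjusted p 0.000131).

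Fcrls differed least between microglia and BMD MLCs. Its lowest, median and highest values were 8.51, 9.87 and 11.08 in microglia, 7.41, 9.74 and 10.55 in BMD MLCs, and 1.49, 4.17 and 9.21 in ER-Hoxb8 MLCs. BMD macrophages gave 7.85, 5.12 and 6.80, and ER-Hoxb8 macrophages 4.09, 7.29 and -0.91. Every pair of neighbours in the order of means overlapped: microglia, BMD MLCs, BMD macrophages, ER-Hoxb8 MLCs, ER-Hoxb8 macrophages. BMD MLCs and microglia differed by -0.48 (95% confidence interval -2.58 to 1.62, adjusted p 0.813). Fcrls was 25.2-fold lower in ER-Hoxb8 MLCs than in microglia (log2 -4.66, SE 1.02, adjusted p 0.000774) and 18.1-fold lower than in BMD MLCs (log2 -4.18, SE 1.12, adjusted p 0.012). With 1 library left out these ranged from -5.47 to -3.93 and from -4.99 to -3.45. Against their own cultures the differences were 2.72 in BMD MLCs (adjusted p 0.133) and 1.64 in ER-Hoxb8 MLCs (adjusted p 0.364), neither called. The former ranged from 1.99 to 3.35 with 1 library left out. The BMD difference passed when only the groups compared were fitted (2.72, adjusted p 0.0142) and with library weights (2.24, adjusted p 0.02), and the ER-Hoxb8 difference turned to -0.56 without ER-Hoxb8 macrophage replicate 3.

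**Figure D2:**
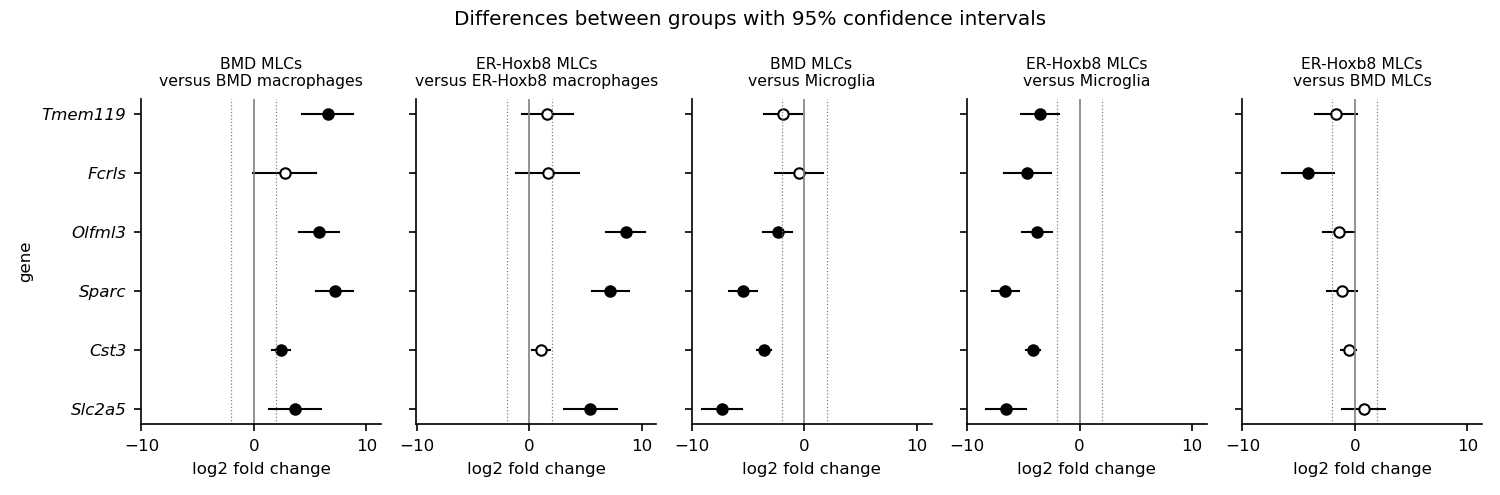
Log2 fold change of each gene in 5 comparisons of the brain set, with bars for the 95% confidence interval; filled points were called and dotted lines mark the fold limit of 2. Sparc lies at 7.19 and 7.21 against the cultures and at -5.47 and -6.62 against microglia, while Fcrls against microglia lies at -0.48 in BMD MLCs and -4.66 in ER-Hoxb8 MLCs.

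Whether brain residence acted unlike on the 2 cell sources was tested as an interaction, called on adjusted p alone. limma called 0 of 6 genes (3 at an unadjusted p below 0.05), where 3.28% of all genes were called. Tmem119 came nearest, at -4.97 (95% confidence interval -8.18 to -1.75, adjusted p 0.0808), followed by Cst3 at -1.40 (adjusted p 0.191) and Olfml3 at 2.79 (adjusted p 0.244). Leaving out 1 library gave -5.94 to -3.88 for Tmem119 and 1.63 to 3.96 for Olfml3. The higher count in BMD MLCs than in ER-Hoxb8 MLCs was thus not shown to be a difference between the sources. With library weights Tmem119 (-4.83, adjusted p 0.000476) and Olfml3 (3.08, adjusted p 0.0083) were called. Calls were also gained with the GFPHox or the WTHox libraries alone, as counted further on under the processing.

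The GFPHox libraries had higher means than the WTHox libraries in all 6 genes. Mean levels in GFPHox and WTHox libraries were 9.75 and 6.22 for Tmem119 and 7.46 and 2.80 for Fcrls. For Olfml3 the means were 7.46 and 5.07, and for Sparc 7.89 and 4.89. Cst3 stood at 12.55 and 11.51, and Slc2a5 at 3.35 and 0.52. Each series holds 3 libraries of this group only, and the difference between the series was not tested. With the GFPHox libraries alone, 5 of 6 genes were called against ER-Hoxb8 macrophages, Tmem119 (3.36, adjusted p 0.0221) and Fcrls (3.97, adjusted p 0.0334) now among them. With the WTHox libraries alone Tmem119 stood at -0.16 and Fcrls at -0.69. Against BMD MLCs, 0 genes were called with GFPHox alone (Fcrls -1.84, adjusted p 0.342) and 4 with WTHox alone, among them Tmem119 (-3.43, adjusted p 0.02), Olfml3 (-2.61, adjusted p 0.0246) and Sparc (-2.65, adjusted p 0.00483). Against microglia, 4 of 6 genes were called with GFPHox alone, since Tmem119 (-1.78, adjusted p 0.141) and Fcrls (-2.32, adjusted p 0.131) no longer passed.

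Within a group, some of the genes moved together from library to library. Among the 9 microglia libraries, replicates 4, 5 and 8 were low in Tmem119 (9.52, 9.51 and 9.14) and in Slc2a5 (7.51, 7.39 and 4.27), and the 2 genes ranked the libraries identically (Pearson r 0.90, Spearman rho 1.00). Fcrls and Olfml3 went with them (r 0.93 and 0.94 with Tmem119), whereas Sparc (0.40) and Cst3 (-0.21) did not. In the 6 ER-Hoxb8 MLC libraries all pairs had an r between 0.72 and 0.97. The 6 BMD MLC libraries split differently: Fcrls, Olfml3, Sparc and Cst3 were lowest in replicates 1 and 2 (r of Sparc with Cst3 0.98), and Tmem119 and Slc2a5 were lowest in replicate 3 (r 0.89). These correlations describe few libraries, and in ER-Hoxb8 MLCs the group holds both library series, whose means differ.

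**Figure D3:**
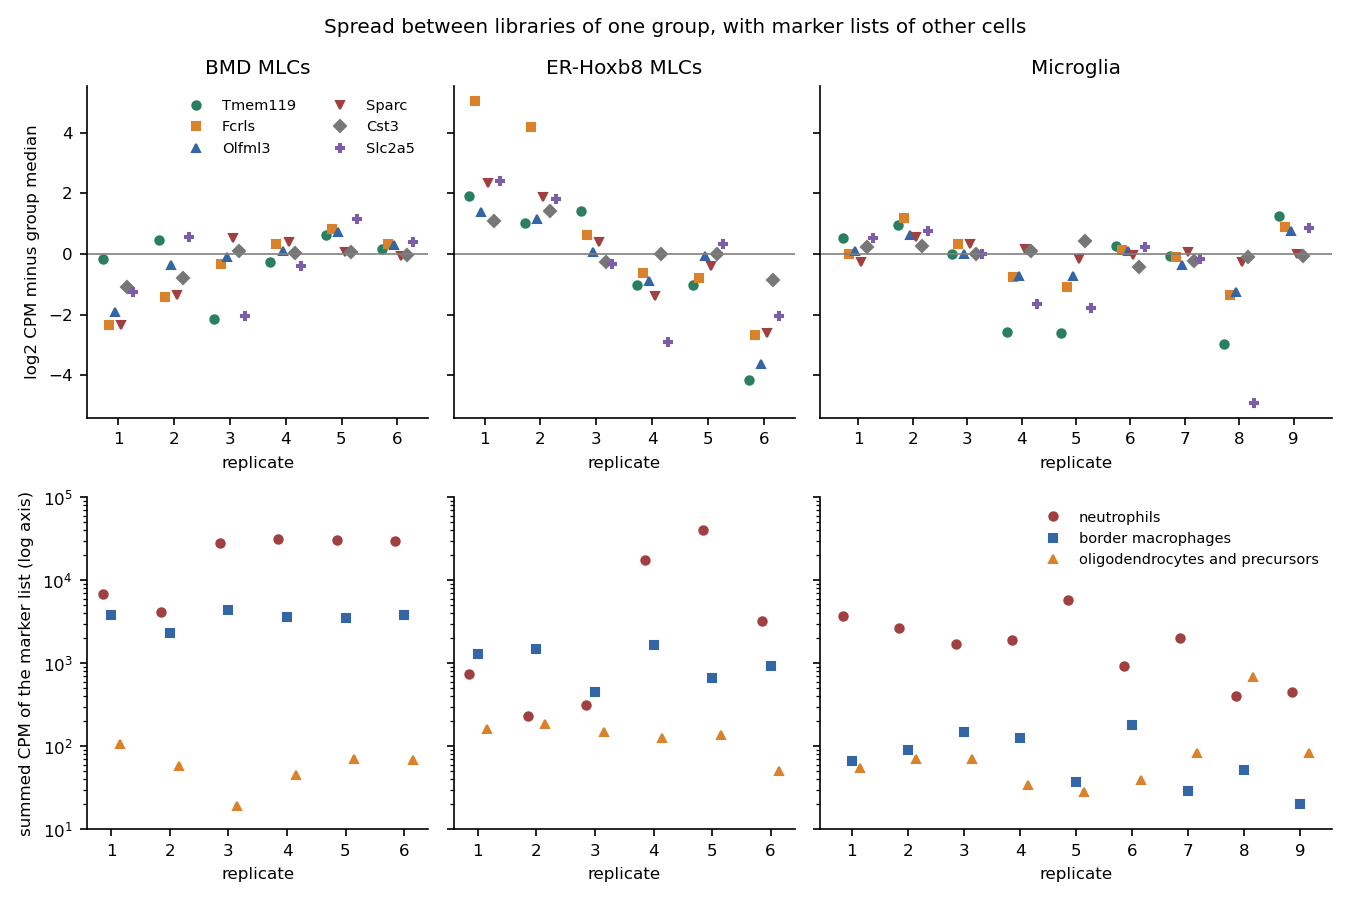
Top, log2 CPM of each gene minus its group median in every library of the groups from the brain; bottom, summed CPM of 3 marker lists in the same libraries on a log axis. Microglia replicate 8 shows Slc2a5 and Tmem119 below the rest together with the highest oligodendrocyte sum (677 CPM), and ER-Hoxb8 MLC replicates 4 and 5 show neutrophil sums of 17634 and 40468 CPM.

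Markers of other cells varied between the same groups, and their part in the differences was not tested. The 6 neutrophil markers had medians of 28864 CPM in BMD MLCs, 2000 CPM in ER-Hoxb8 MLCs and 1915 CPM in microglia, with Ngp the most abundant, against 13.6 and 20.6 CPM in BMD and ER-Hoxb8 macrophages. By library, ER-Hoxb8 MLCs held 737, 230 and 315 CPM in the GFPHox series and 17634, 40468 and 3262 CPM in the WTHox series. The 5 border macrophage markers, Mrc1 the most abundant, had medians of 3684 CPM in BMD MLCs, 1114 CPM in ER-Hoxb8 MLCs and 66.8 CPM in microglia. The 4 microglia markers (P2ry12, P2ry13, Siglech, Sall1) had medians of 3327, 679 and 29865 CPM in the same order, and 24.3 and 21.9 CPM in the 2 cultures. The 5 macrophage markers had medians of 4771, 2616 and 6037 CPM, and the 4 monocyte markers 4370, 2409 and 10359 CPM. Csf1r or Cx3cr1 was the most abundant monocyte marker. Microglia express both genes too, so this sum does not tell monocytes from microglia. Megakaryocyte and platelet markers reached a median of 252 CPM in BMD MLCs through Pf4, against 14.4 CPM in ER-Hoxb8 MLCs and 31.8 CPM in microglia. Progenitor markers had medians of 87.7, 14.7 and 77.7 CPM. Fos led the dissociation markers in MLCs, whose medians were 83.8 CPM in BMD MLCs, 111 CPM in ER-Hoxb8 MLCs and 16.9 CPM in microglia.

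Astrocytes and vascular cells also make Cst3 or Sparc in the brain. The cells were sorted on CD45 and CD11b, and markers of such other cells were summed in the same libraries. Their part in the differences of Cst3 and Sparc was not tested. Astrocyte markers summed to a median of 294 CPM in microglia, with Slc1a3 the most abundant (median 288 CPM) and Aqp4 at the lowest value in all 9 libraries, and to 30.4 CPM in BMD MLCs and 53.5 CPM in ER-Hoxb8 MLCs. Microglia replicate 8 held 834 CPM, of which Slc1a3 made up 391 CPM. Endothelial markers had medians of 48.1, 23.2 and 68.4 CPM in microglia, BMD MLCs and ER-Hoxb8 MLCs, with Cdh5 at the lowest value in every MLC library. Pecam1 was the most abundant of them in microglia, BMD MLCs and ER-Hoxb8 MLC replicate 4. In the other ER-Hoxb8 MLC libraries it was Flt1, at 30.7 to 57.2 CPM. Pericyte and fibroblast markers stayed at medians of 4.09, 5.33 and 3.75 CPM. Oligodendrocyte markers had medians of 70, 62.8 and 143 CPM, and neuron markers 1.82, 4.26 and 7.13 CPM. Osteoblast markers, a matrix-making marrow cell being a known source of Sparc, had medians of 1.85, 14.6 and 19.4 CPM, Runx2 the most abundant, with Bglap, Sp7, Alpl and Ibsp at the lowest value in every MLC library.

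Some of the other homeostatic microglia genes were called in these comparisons too. Of 36 tested, 19 were higher and 0 lower in BMD MLCs than in BMD macrophages (median 2.61; 15.9% of all genes called), with P2ry12 (9.50), Gpr34 (8.13), Crybb1 (7.49) and Siglech (7.15) the largest. In ER-Hoxb8 MLCs 20 were higher and 2 lower (median 2.92; 19.3% of all genes), led by P2ry12 (9.90), C1qb (8.61), C1qa (7.76) and Siglech (6.74). Against microglia, 14 were lower in BMD MLCs (median -1.76; 10.7% of all genes; Sall3 -8.94, Sall1 -8.80) and 25 in ER-Hoxb8 MLCs (median -2.91; 16.3% of all genes; Gpr56 -8.26, Sall1 -7.69), and 0 were higher in either. Between the MLCs 1 was higher and 3 lower in ER-Hoxb8 cells, and between the cultures 1 was higher and 2 lower. Ctss was the most abundant of the list in this set.

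The relatives of the 6 genes were also counted in these comparisons, where 15.9% (BMD) and 19.3% (ER-Hoxb8) of all genes were called against culture, 10.7% and 16.3% against microglia, and 6.56% between the MLCs. Of 4 tested genes of the SPARC and olfactomedin family, Sparcl1 was higher in both kinds of MLC than in culture (6.04 and 7.23), and Olfml2b was lower in both than in microglia (-3.19 and -5.55) and lower in ER-Hoxb8 than in BMD MLCs (-2.36). Among 11 cystatins and cathepsins, 3 were higher and 4 lower in BMD MLCs than in their culture (Stfa2 5.73, Stfa3 4.53, Ctsk -4.42, Ctsb -3.10), and 4 were higher and 2 lower in ER-Hoxb8 MLCs (Stfa2 7.56, Ctsk -7.08, Stfa3 6.16, Ctsb -3.73). Against microglia 0 of 11 were called in BMD MLCs by limma, while in ER-Hoxb8 MLCs 3 were higher and 1 lower (Cst7 3.58, Ctsl -3.03, Ctsc 2.77, Stfa2 2.57). Stfa2 and Stfa3 code for stefins abundant in neutrophils. Of 2 tested Fc receptor-like genes, 0 differed from culture, Fcrl5 was lower in BMD MLCs than in microglia (-2.32) and Fcrl1 lower in ER-Hoxb8 MLCs (-2.43). Of 7 glucose and fructose genes, Slc2a3 was higher (2.85 and 5.16) and Aldoa lower (-2.85 and -2.42) in BMD and ER-Hoxb8 MLCs than in culture, and Slc2a6 was higher than in microglia (3.86 and 5.67). Aldoa was the most abundant gene of that list.

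Over the 27 libraries of the brain set, the genes with the closest pattern among 12517 were found for each of the 6 by Pearson r, as a description of values that mostly separate the groups. Olfml3 went with P2ry12 (0.98), Siglech (0.97) and Spsb1 (0.95). Sparc went with Siglech (0.98), Tmem100 (0.98) and P2ry12 (0.97). The closest to Cst3 were Nav3 (0.98), Thrsp (0.98) and Glrp1 (0.97), and to Slc2a5 Ecscr (0.95), Tmem100 (0.95) and Sall1 (0.94). Tmem119 and Fcrls had looser partners: Mlxipl, Ctc1 and Ptgs1 (each 0.91) for Tmem119, and Pigu (0.89), Mmp2 (0.88) and Arsb (0.87) for Fcrls.

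In the progenitor set, which asks how marrow and ER-Hoxb8 cells compare before they become macrophages, Tmem119 set the ER-Hoxb8 cells apart. BM progenitors held 3.94, 4.20 and 4.13 and BM monocytes 3.79, 3.68 and 3.82, while ER-Hoxb8 progenitors held 6.24, 6.90 and 6.86 and 4-day cells 7.09, 7.04 and 8.19. All ER-Hoxb8 libraries lay above all marrow libraries. Tmem119 was 5.95-fold higher in ER-Hoxb8 than in BM progenitors (log2 2.57, SE 0.31, adjusted p 0.000102), the only call among 4 genes tested, with 15.3% of all genes called. Progenitor markers were lower and macrophage markers higher in these ER-Hoxb8 libraries, as given with their sums, and their part was not tested.

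Cst3 was higher in BM monocytes than in BM progenitors, short of the fold limit. It stood at 7.49, 8.16 and 7.98 in BM progenitors and at 9.23, 10.01 and 9.85 in BM monocytes, with no overlap (1.82, SE 0.47, adjusted p 0.0262). limma called 0 of the 4 genes tested in that comparison (1 at an unadjusted p below 0.05), with 6.84% of all genes called; without BM monocyte replicate 1 Cst3 passed at 2.06. In ER-Hoxb8 progenitors Cst3 was 8.18, 10.13 and 8.30, and in 4-day cells 10.67, 10.35 and 10.07. Fcrls was high in that same replicate 2: -2.89, 4.15 and -0.47 in ER-Hoxb8 progenitors and 2.69, 4.12 and 1.48 in 4-day cells. Between 4-day cells and ER-Hoxb8 progenitors limma called 0 of 4 genes (2 at an unadjusted p below 0.05) and 0% of all genes (1129 at an unadjusted p below 0.05). Without ER-Hoxb8 progenitor replicate 2, the library with the highest macrophage marker sum (4680 CPM), 2 of the 4 were called and 733 genes in all.

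The other genes were scarce in this set. Fcrls stayed between -3.17 and -0.84 in marrow cells. Sparc held -0.52, 1.72 and 1.83 in BM progenitors, 0.70, 1.98 and 0.50 in BM monocytes, and -2.52 to 0.34 in the ER-Hoxb8 libraries, and its difference between the progenitors was -2.10 (adjusted p 0.0914). Pericyte and fibroblast markers, Col1a1 the most abundant, had medians of 67.4 CPM in BM progenitors and 0.364 CPM in ER-Hoxb8 progenitors beside it, and their part was not tested. Olfml3 ranged from -2.70 to -0.15 and exceeded 1 CPM in 0 of 12 libraries. Slc2a5 was at the lowest value in 9 of 12, and neither gene was tested. Among the other homeostatic genes, 2 of 33 were higher and 2 lower in BM monocytes than in BM progenitors (6.84% of all genes called; Crybb1 4.50, Siglech -4.06, Cd81 -2.40, Itgb5 2.27), and 4 were higher and 9 lower in ER-Hoxb8 progenitors (15.3% of all genes; Siglech -7.94, Mef2c -7.78, Gpr56 -7.49, Sall3 6.79).

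**Figure D4:**
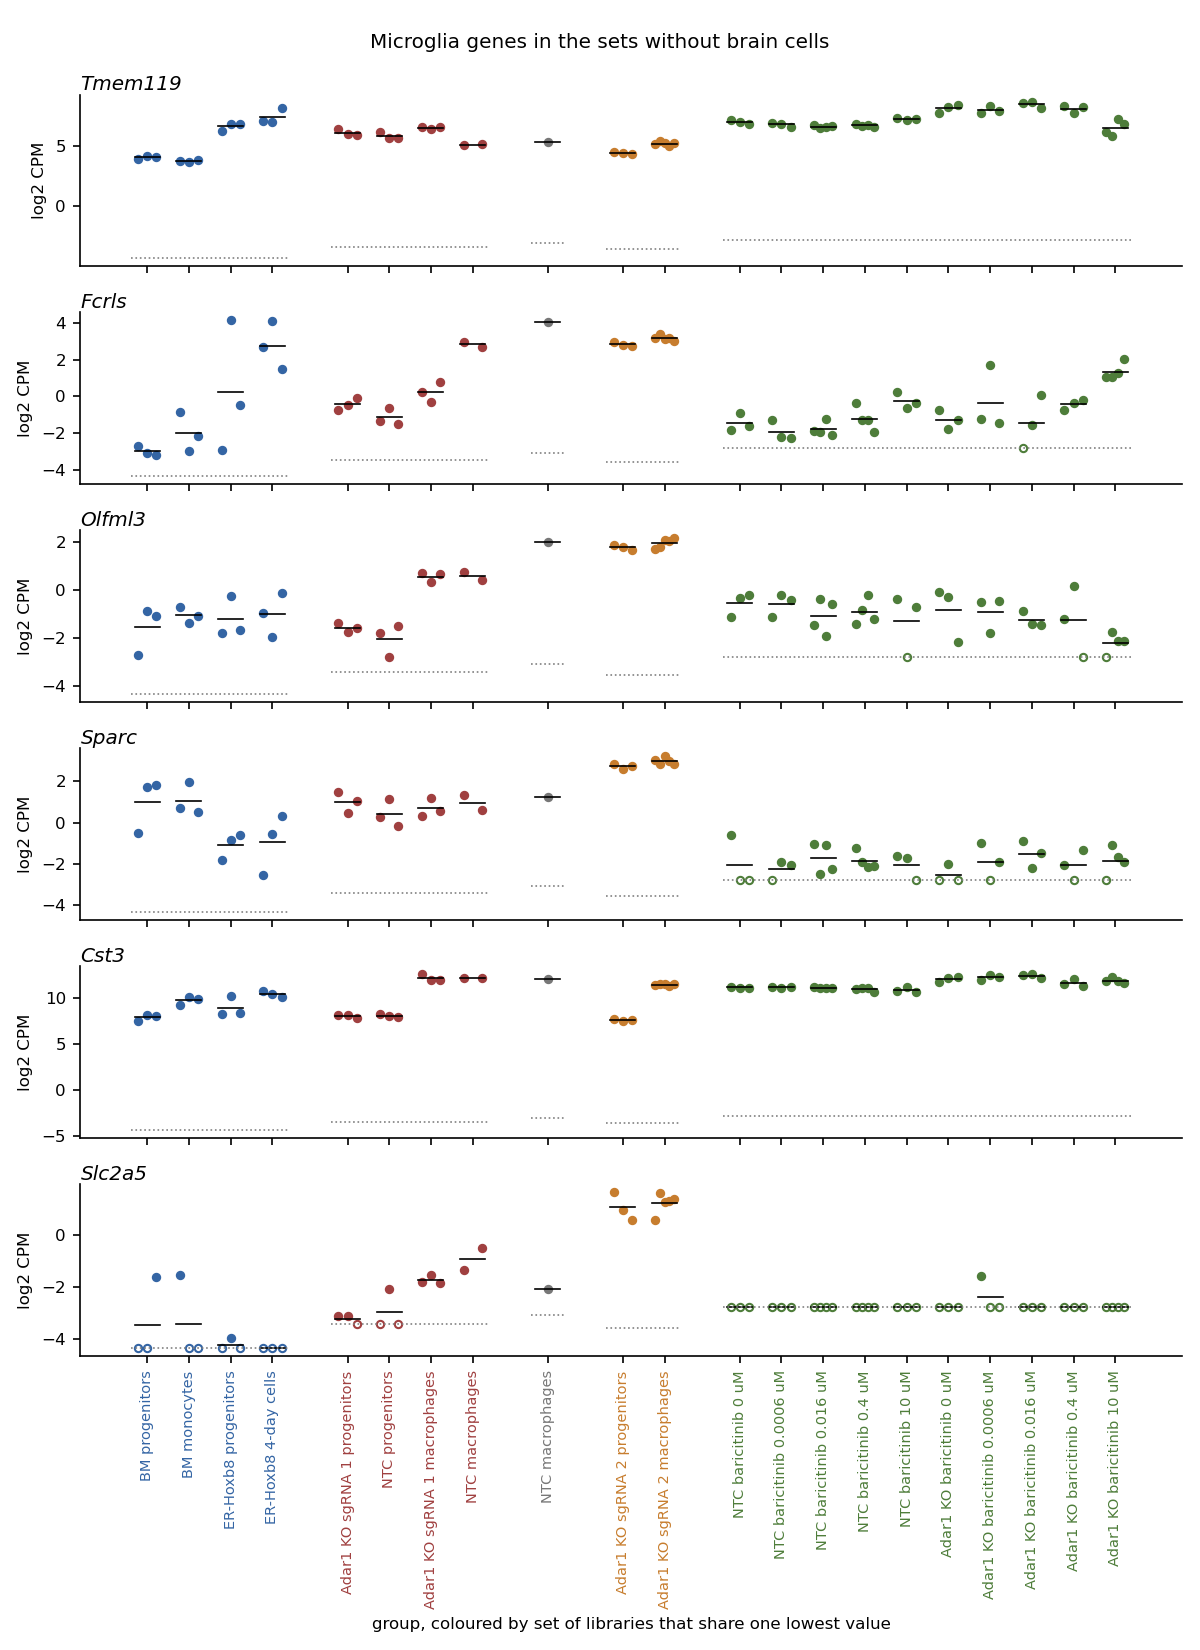
Log2 CPM of the 6 genes in every library outside the brain set, by group, with group means as bars; colours mark sets, dotted lines their lowest values and open symbols libraries at it, and levels compare only within a colour. Cst3 in the guide 1 set lies between 7.80 and 8.21 in progenitors and between 11.85 and 12.53 in macrophages, and Slc2a5 lies at the lowest value in 32 of 33 baricitinib libraries.

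The guide 1 set follows ER-Hoxb8 cells from progenitor to macrophage with and without sgRNA 1 to Adar1. Cst3 rose in both genotypes, from 8.21, 8.04 and 7.87 in NTC progenitors to 12.12 and 12.09 in NTC macrophages and from 8.07, 8.08 and 7.80 in Adar1 KO progenitors to 12.53, 11.93 and 11.85 in Adar1 KO macrophages. The stages did not overlap. The rise was 16.7-fold in NTC cells (log2 4.06, SE 0.19, adjusted p 5.39e-09) and 17.4-fold in Adar1 KO cells (log2 4.12, SE 0.17, adjusted p 2.04e-09). Of 5 genes tested, 3 were called in NTC cells (23.5% of all genes) and 2 in Adar1 KO cells (21.6%). NTC macrophage replicate 2, which has another lowest value and was left out of the fit, held Cst3 at 12.05. The labels begin with NTC2 for that library and the NTC progenitors, and with NTC alone for the NTC macrophages fitted. The meaning is not stated, and in the fit this name cannot be told apart from stage in NTC cells.

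Fcrls differed between the genotypes in this set. NTC progenitors gave -1.33, -0.61 and -1.49, NTC macrophages 2.96 and 2.71, Adar1 KO progenitors -0.71, -0.44 and -0.10, and Adar1 KO macrophages 0.24, -0.30 and 0.79. Adar1 KO macrophages overlapped their own progenitors and lay below the NTC macrophages. In this set Fcrls exceeded 1 CPM in 4 of 11 libraries, 2 of them the NTC macrophages. It met the filter of 3 libraries only through that group, where it was high. Fcrls rose 15.8-fold in NTC cells (log2 3.98, SE 0.40, adjusted p 3.53e-06), and the Adar1 KO difference was 0.66 (adjusted p 0.117). In macrophages it was 6.03-fold lower in Adar1 KO than in NTC (log2 -2.59, SE 0.40, adjusted p 0.000799), the only call among 5 genes tested (4.02% of all genes). The interaction was -3.32 (95% confidence interval -4.50 to -2.13, adjusted p 0.00177), 2 of the 5 genes being called there (13.6% of all genes). With log2(CPM + 1) the difference between macrophages stayed under the fold limit (-1.93, adjusted p 3.6e-05), and with NTC macrophage replicate 2 (4.07) added it was -3.0. In the untreated macrophages of the baricitinib set, of the same labelled genotypes, the difference was 0.16 (adjusted p 0.89). Fcrls exceeded 1 CPM in 0 of those libraries, with means of -1.43 in NTC and -1.27 in Adar1 KO cells. The lowest value of that set is -2.78, so a fall as large as -2.59 could not have appeared there.

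Tmem119 moved the other way. NTC progenitors held 6.23, 5.66 and 5.67 and NTC macrophages 5.14 and 5.16, whereas Adar1 KO progenitors held 6.43, 6.04 and 5.93 and Adar1 KO macrophages 6.61, 6.43 and 6.63. Every Adar1 KO macrophage lay above both NTC macrophages. The difference was 2.65-fold (log2 1.41, SE 0.19, adjusted p 0.000305), under the fold limit, and the interaction was 1.13 (95% confidence interval 0.56 to 1.69, adjusted p 0.0139). Border macrophage markers were lower in the same Adar1 KO macrophages, F13a1 and Mrc1 among them (-2.64 and -3.20), with summed medians of 416 CPM in Adar1 KO and 2438 CPM in NTC macrophages, and their part was not tested.

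Olfml3 rose to low levels in both genotypes. It held -1.81, -2.78 and -1.51 in NTC progenitors and 0.73 and 0.39 in NTC macrophages, and -1.40, -1.76 and -1.60 in Adar1 KO progenitors and 0.69, 0.30 and 0.64 in Adar1 KO macrophages. The stages did not overlap, at 2.59 (SE 0.42, adjusted p 0.000175) and 2.13 (SE 0.38, adjusted p 0.000324). Olfml3 exceeded 1 CPM in 5 of 11 libraries, all of them macrophages. It met the filter for testing only through the stage where it was higher. With log2(CPM + 1) neither difference reached the fold limit (1.03 and 0.93). Sparc ranged from -0.18 to 1.49 over the 11 libraries and was called in none of the comparisons. Slc2a5 exceeded 1 CPM in 0 of 11 libraries and was not tested. Neuron markers stood at medians of 10.4 CPM in NTC progenitors and 9.37 CPM in Adar1 KO progenitors, against 0.0169 and 0.117 CPM in macrophages; beside them Sparcl1, the relative of Sparc, fell by 5.67 and by 5.77 from progenitors to macrophages. The part of these markers was not tested.

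Before differentiation few genes differed between the guides. In progenitors limma called 0 of 5 genes between Adar1 KO and NTC (0 at an unadjusted p below 0.05), with 0.254% of all genes called; Fcrls differed by 0.72 (adjusted p 0.836). Adar itself held 4.36, 4.23 and 4.24 in Adar1 KO and 4.20, 3.42 and 4.28 in NTC progenitors, and in macrophages 6.96, 7.15 and 7.01 against 5.73 and 5.67 (1.34, SE 0.21, adjusted p 0.000976). A guide need not remove the transcript it targets, so these levels do not check the labels. With differentiation 23.5% of all genes were called in NTC and 21.6% in Adar1 KO cells, and 4.02% between the macrophages. Among other homeostatic genes, 22 of 32 rose and 2 fell with differentiation in both genotypes (Trem2 8.34 and 8.98, Csf1r 8.36 and 6.86), and 1 was higher and 4 lower in Adar1 KO than in NTC macrophages (Slco2b1 -4.48, C1qa -2.92, C1qb -2.84, Rnase4 -2.78). Among cystatins and cathepsins, 5 of 9 rose in NTC and 7 of 9 in Adar1 KO cells (Ctss 7.46 and 8.15), and Cst7 was higher in Adar1 KO than in NTC macrophages (2.19). Fcrl1, the only Fc receptor-like gene tested, rose by 4.45 and 3.54, and of 6 glucose and fructose genes Slc2a6 rose by 3.61 and 4.66.

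The guide 2 set holds Adar1 KO cells made with sgRNA 2 and no NTC libraries, so it shows differentiation only. Cst3 went from 7.65, 7.45 and 7.54 in progenitors to 11.32, 11.42, 11.42, 11.24 and 11.42 in macrophages, a 14.1-fold rise (log2 3.82, SE 0.06, adjusted p 2.65e-12) without overlap, and the only call among 6 genes tested (19.3% of all genes). Tmem119 went from 4.53, 4.48 and 4.40 to 4.99 to 5.41 (0.75, adjusted p 2.64e-05), and Fcrls from 2.99, 2.81 and 2.77 to 3.00 to 3.40 (0.33, adjusted p 0.0297), both under the fold limit. The other genes stood at steady low levels through both stages. Olfml3 lay between 1.66 and 2.14 in all 8 libraries. Sparc lay between 2.60 and 3.22, and Slc2a5 between 0.60 and 1.66, above 1 CPM in 8 of 8. The microglia markers did likewise, with medians of 26.4 CPM in progenitors and 33 CPM in macrophages and P2ry12 at 14.1 and 17.2 CPM, and their part was not tested. Among the other homeostatic genes 12 of 32 rose and 0 fell (Trem2 7.36, Csf1r 6.29, Ctss 5.69), and of 9 cystatins and cathepsins 6 rose (Ctsb 5.98).

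The baricitinib set asks whether blocking JAK signalling alters Adar1 KO macrophages, and here Tmem119, Fcrls and Cst3 could be tested. Without drug, Tmem119 was 7.17, 7.05 and 6.87 in NTC and 7.75, 8.28 and 8.45 in Adar1 KO macrophages. At 10 uM it was 7.33, 7.20 and 7.31 in NTC and 6.20, 5.83, 7.31 and 6.83 in Adar1 KO macrophages. The Adar1 KO libraries lay above the NTC libraries at 0 uM and overlapped them at 10 uM. The genotype difference was 1.13 without drug (SE 0.24, adjusted p 0.000952) and -0.74 at 10 uM (SE 0.23, adjusted p 0.00878), and the difference between 10 and 0 uM was -1.62 in Adar1 KO cells (SE 0.23, adjusted p 4.83e-07) and 0.25 in NTC cells (adjusted p 0.538). The interaction for Tmem119 was -1.87 (95% confidence interval -2.54 to -1.19, adjusted p 7.63e-05), the 1 call among 3 genes tested, where 39.5% of all genes were called. At 0.0006, 0.016 and 0.4 uM, Tmem119 means were 6.83, 6.64 and 6.74 in NTC and 8.04, 8.50 and 8.15 in Adar1 KO cells.

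Fcrls was higher at 10 uM than without drug in Adar1 KO macrophages. It was -0.76, -1.76 and -1.28 without drug and 1.04, 1.04, 1.30 and 2.04 at 10 uM, with no overlap. At 0.0006 uM 1 of 3 Adar1 KO libraries (1.69) also lay within the range at 10 uM. The change was 6.16-fold (log2 2.62, SE 0.61, adjusted p 0.00044), the only call among 3 genes tested (14.7% of all genes). In NTC macrophages Fcrls was -1.80, -0.88 and -1.59 without drug and 0.22, -0.61 and -0.35 at 10 uM, again without overlap (1.18, adjusted p 0.238), and limma called 0 of 3 genes there (0 at an unadjusted p below 0.05), with 0.834% of all genes called. The interaction was 1.44 (adjusted p 0.203), so a difference between the genotypes in this response was not shown. With log2(CPM + 1) the change in Adar1 KO cells stayed under the fold limit (1.42, adjusted p 7.26e-05). Fcrls exceeded 1 CPM in 6 of 33 libraries of this set, among them all 4 Adar1 KO libraries at 10 uM. It met the filter for testing, above 1 CPM in at least 3 libraries, only through this group, where it was high.

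In this set Cst3 was higher in Adar1 KO than in NTC macrophages with and without drug. It was 11.18, 11.08 and 11.08 in NTC and 11.69, 12.15 and 12.26 in Adar1 KO cells at 0 uM, and 10.74, 11.15 and 10.65 against 11.75, 12.24, 11.79 and 11.56 at 10 uM. The genotypes did not overlap at either dose. The differences of 0.92 (SE 0.18, adjusted p 0.000418) and 0.99 (SE 0.17, adjusted p 2.8e-05) were under the fold limit, as was that of Fcrls at 10 uM (1.60, adjusted p 0.0328). In the guide 1 set the Cst3 means of Adar1 KO and NTC macrophages were 12.10 and 12.11 (adjusted p 0.998). Between genotypes limma thus called 0 of 3 genes at 0 uM (2 at an unadjusted p below 0.05; 3.87% of all genes called) and 0 of 3 at 10 uM (3 at an unadjusted p below 0.05; 3.14%).

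**Figure D5:**
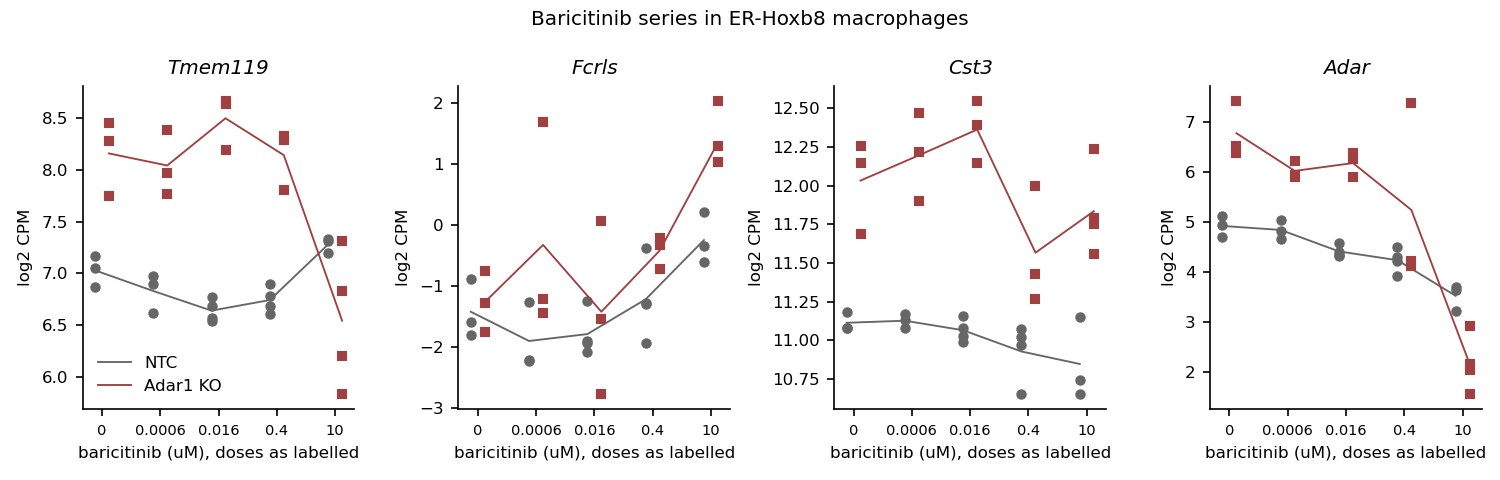
Log2 CPM of Tmem119, Fcrls, Cst3 and Adar by labelled baricitinib dose, in even steps and not to scale, with a point per library and lines through the means of NTC (grey) and Adar1 KO (red) macrophages. Tmem119 in Adar1 KO cells goes from a mean of 8.15 at 0.4 uM to 6.54 at 10 uM, and Fcrls from -0.42 to 1.36.

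Adar and other genes were also followed in these libraries. Adar means in Adar1 KO cells were 6.77, 6.02, 6.18, 5.24 and 2.16 from 0 to 10 uM, and the change at 10 uM was -4.61 (SE 0.45, adjusted p 8.68e-10); at 0.4 uM the libraries held 4.12, 7.38 and 4.21. In NTC cells the Adar difference was -1.40 (SE 0.48, adjusted p 0.0502). Macrophage markers summed to medians of 5326 CPM at 0 uM and 2975 CPM at 10 uM in Adar1 KO cells and to 5648 and 4574 CPM in NTC cells, and monocyte markers to 2819 and 947 CPM in Adar1 KO cells, with Csf1r at medians of 1572 and 420 CPM. The part of these markers was not tested. Among other homeostatic genes, 8 of 30 rose and 1 fell at 10 uM in Adar1 KO cells (14.7% of all genes called; Mef2c 5.01, C1qc 3.74, C1qa 3.64, Rnase4 3.38), and 4 rose and 0 fell in NTC cells (0.834% of all genes; C1qb 4.89, C1qa 3.74, P2ry13 2.51, C1qc 2.27). Among 10 cystatins and cathepsins, Ctsk fell by 2.60, Ctsb fell by 2.22 and Ctsh rose by 2.45 in Adar1 KO cells. Of the 6 genes, Olfml3 and Sparc exceeded 1 CPM in 0 of 33 libraries, with highest values of 0.17 and -0.59, and Slc2a5 was at the lowest value in 32 of 33, so no fold is given for them.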

How the data were processed

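Bulk RNA sequencing was done on 92 mouse libraries in 25 groups. The authors trimmed reads with fastp, checked them with FastQC and MultiQC, quantified them with kallisto 0.46.0 against GRCm39 transcripts, summed counts per gene with tximport, and deposited log2 CPM values after edgeR TMM scaling with a prior count. CPM was rebuilt as 2 to the power of the value, less 2 to the power of the lowest value of the set. The table holds 29957 entries, of which 1 has no gene name (0.0023% to 0.058% of a library) and was left out. Depth per library is unknown, and the prior count of 2 behind the mean depths is an assumption.

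Each set was fitted in limma 3.58.1 (R 4.3.3) with a mean per group and a variance trend, on genes above 1 CPM in at least 3 libraries (6 in the brain set), with Benjamini-Hochberg adjustment; interactions were called on adjusted p alone. Sums, correlations and figures were made in Python 3.11.15 with numpy 2.4.6, pandas 2.3.3 and matplotlib 3.10.9. The fit was tested on simulated data, and the outcome is not reported here. NTC macrophage replicate 2 was left out of the tests because its lowest value is its own. No fold is given where both groups sit at the lowest value.

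The genes and lists were chosen with earlier results of these data known. Genes named are the 6, the 3 closest to each by correlation, Adar, and from each list the most abundant and up to 4 called genes of largest fold change. Also named are all members of the progenitor and microglia marker lists. Aqp4, Cdh5, Bglap, Sp7, Alpl and Ibsp are named outside this rule, for sitting at the lowest value in the groups stated. Some genes that this rule would name are not reported here. The lists were other homeostatic microglia genes (38), the SPARC and olfactomedin family (14), cystatins and cathepsins (13), Fc receptor-like genes (5), glucose and fructose genes (15), and markers of neurons, oligodendrocytes, astrocytes, endothelium, pericytes and fibroblasts, osteoblasts, megakaryocytes and platelets, border macrophages, neutrophils, microglia, macrophages, monocytes, progenitors and dissociation. Replicate numbers were checked for pairing by the correlation of deviations from group means. They paired the 4-day cells with the ER-Hoxb8 progenitors (r 0.23 to 0.43) and the sgRNA 1 with the NTC progenitors (r 0.16 to 0.35). The alternatives were log2(CPM + 1), no filter, quantile normalization, only the groups compared, a fold limit of 1, a replicate block, each library left out, and the library series. Library weights, NTC macrophage replicate 2 added, and the interactions under these settings were chosen after seeing the data.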

Additional observations from a re-analysis of the deposited data

Results flagged for a closer look

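The 6 genes were searched for a library far from the others in the 7 groups of 4 to 10 libraries, and 2 were found among 39 combinations of gene and group; chance alone gives about 1 in 20. In 3 further combinations all libraries sat at the lowest value. Tmem119 in BMD MLC replicate 3 was 7.74 log2 CPM, the lowest of 6 (gap over range 0.68). Slc2a5 in microglia replicate 8 was 4.27 log2 CPM, the lowest of 9 (gap over range 0.54), in the library that also had the most genes of its set at the lowest value (56.9%) and the highest oligodendrocyte marker sum (677 CPM). So many far libraries are no more than chance would give, and the test cannot say whether chance, cells or preparation set a library apart.

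A difference between groups was called for 3 interactions of single genes. In the guide 1 set, the change from progenitor to macrophage differed between Adar1 KO and NTC cells by 1.13 for Tmem119 (adjusted p 0.0139) and by -3.32 for Fcrls (adjusted p 0.00177), where 13.6% of all genes were called. Fcrls met the filter for testing in the guide 1 set only through the NTC macrophages. The untreated macrophages of the baricitinib set gave a genotype difference of 0.16 for Fcrls (adjusted p 0.89). Fcrls exceeded 1 CPM in 0 of those libraries, too near the lowest value for a fall of that size to appear. In the baricitinib set, the difference between 10 and 0 uM was unlike in the 2 genotypes for Tmem119, at -1.87 (adjusted p 7.63e-05), 1 of 3 genes tested, where 39.5% of all genes were called. No cause was tested.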

How the results depend on the processing

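Across 21 comparisons, the number of the 6 genes called was unchanged in 172 of 182 fits with 1 library left out and in 114 of 142 fits under other settings. Of single genes, 58 log2 fold changes were followed, which do not cover every gene tested in every comparison. For these, leaving out 1 library took 6 below the threshold, brought 1 past it and reversed 1, with 560 kept. Other settings did so for 10, 14 and 4, with 351 kept. Calls gained by genes not followed show only in the counts. The cause of the changes given here was not tested.

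With a fold limit of 1, genes called among the 6 went from 0 to 1 in BM monocytes versus BM progenitors and in both genotype comparisons of the baricitinib set, and from 1 to 2 in Adar1 KO versus NTC macrophages and in baricitinib-treated Adar1 KO macrophages, and from 3 to 4 in ER-Hoxb8 MLCs versus their culture. With log2(CPM + 1) they went from 1 to 0 in ER-Hoxb8 versus BMD macrophages, Adar1 KO versus NTC macrophages and baricitinib-treated Adar1 KO macrophages, from 2 to 1 in sgRNA 1 macrophages versus progenitors, from 3 to 2 in NTC macrophages versus progenitors (4 with no filter) and from 5 to 4 in BMD MLCs versus their culture. In ER-Hoxb8 versus BMD macrophages the 1 call became 0 when only the groups compared were fitted and 2 with library weights. BMD MLCs versus their culture went from 5 to 6 under either of these settings, and library weights gave 4 in place of 3 in ER-Hoxb8 MLCs versus their culture and 5 in place of 4 in BMD MLCs versus microglia. Quantile normalization gave 2 in place of 1 in ER-Hoxb8 versus BM progenitors. The interaction of brain residence and cell source went from 0 to 1 with GFPHox alone, to 2 with WTHox alone and to 2 with library weights. ER-Hoxb8 MLCs versus their culture had 5 in place of 3 with GFPHox alone, versus microglia 4 in place of 6, and versus BMD MLCs 0 (GFPHox) or 4 (WTHox) in place of 1.

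With 1 library left out, the counts ranged from 0 to 1 in BM monocytes versus BM progenitors, 1 to 2 in ER-Hoxb8 versus BM progenitors, 0 to 2 in 4-day cells versus ER-Hoxb8 progenitors, 0 to 1 in ER-Hoxb8 versus BMD macrophages and 4 to 5 in BMD MLCs versus BMD macrophages. In ER-Hoxb8 MLCs versus ER-Hoxb8 macrophages, Fcrls ranged from -0.56 to 3.54 in such fits. The direction turned with WTHox alone for Tmem119 (-0.16) and Fcrls (-0.69) against culture, and with GFPHox alone for Tmem119 (0.09) and Sparc (0.35) against BMD MLCs.

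The replicate block gave 2 in place of 1 of the 6 genes in ER-Hoxb8 versus BM progenitors, where the numbers did not pair the libraries, and changed no other call; in the paired comparisons it gave 0 genes in all (as without it) for 4-day cells and 26 in place of 28 for sgRNA 1 versus NTC progenitors.

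Counts over all genes that moved by more than 1.5 times are given as reported and then as altered. With a fold limit of 1 they were 825 and 1541 for BM monocytes versus BM progenitors, 1843 and 2799 for ER-Hoxb8 versus BM progenitors, 1995 and 3488 for BMD MLCs versus BMD macrophages, 2416 and 3987 for ER-Hoxb8 MLCs versus ER-Hoxb8 macrophages, 1338 and 2081 for BMD MLCs versus microglia, 2040 and 3519 for ER-Hoxb8 MLCs versus microglia, and 821 and 1540 between the MLCs. In the guide and baricitinib sets that limit gave 28 and 83 for sgRNA 1 versus NTC progenitors, 2589 and 5404, 2380 and 5017, and 2064 and 4915 for differentiation in NTC, sgRNA 1 and sgRNA 2 cells, 442 and 1159 for sgRNA 1 versus NTC macrophages, 432 and 1259 (0 uM) and 350 and 1890 (10 uM) for the genotypes, and 93 and 491 (NTC) and 1635 and 4296 (Adar1 KO) for the drug. With log2(CPM + 1) they fell from 1338 to 842, 2040 to 1266 and 821 to 447 in the MLC comparisons with microglia and with each other, 28 to 13 and 442 to 282 for sgRNA 1 versus NTC progenitors and macrophages, 432 to 250 and 350 to 152 for the genotypes, and 93 to 43 for the drug in NTC cells. ER-Hoxb8 versus BMD macrophages had 232, but 103 with only the groups compared, 828 with library weights and 151 without BMD macrophage replicate 1. The interaction of brain residence and cell source had 410, but 815 with GFPHox alone, 2889 with library weights, and 263, 224 and 252 without BMD macrophage replicate 1, 3 or ER-Hoxb8 macrophage replicate 3. BM monocytes versus BM progenitors fell to 376 and 434 without BM progenitor replicate 1 or 3 and to 529 and 540 without BM monocyte replicate 2 or 3. For 4-day cells the 0 became 1 and 733 without ER-Hoxb8 progenitor replicate 1 or 2 and 2 without 4-day replicate 2, and the drug in NTC cells gave 61 without NTC 0 uM replicate 1. Depth limits what can be said of Slc2a5, Olfml3, Sparc and Fcrls near the lowest value, where the offset sets the size of a fold.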
